A study of Homo sapiens with 12 samples.

Results

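The genes that encode integrin and laminin subunits were followed across RNA-seq libraries of IMR90, a human diploid fibroblast line from lung. They were chosen by name alone, as protein-coding genes whose symbol is that of an integrin alpha chain (ITGA), an integrin beta chain (ITGB) or a laminin alpha, beta or gamma chain (LAMA, LAMB, LAMC). This gave 38 of the 48162 gene IDs: 26 integrin genes (18 alpha, 8 beta) and 12 laminin genes (5 alpha, 4 beta, 3 gamma). The study asked how DOT1L, the enzyme that methylates histone H3 at lysine 79, affects oncogene-induced senescence and the factors that senescent cells secrete. It held 12 libraries in 4 groups of 3, with 16128055 to 19503457 counts each. Control cells carried the empty vector pBABE-Control. RAS cells carried pBABE-HRASG12V, which drives expression of an active mutant of HRAS and brings about senescence in these cells. RAS/shDOT1L cells carried the same oncogene vector together with pLKO.1-shDOT1L, 1 short hairpin against DOT1L, and no control hairpin is named in the labels of RAS. Figure legends of the study name a control hairpin, shGFP, for knockdown experiments. Whether the sequenced RAS cells carried it is not stated in the labels. DOT1L OE cells carried MSCB-hDot1lwt, which overexpresses wild-type DOT1L. All cells grew in 2% oxygen and were selected for 4 days per the labels, with puromycin at 3 µg/mL except for DOT1L OE, which had blasticidin at 1 µg/mL. DOT1L OE thus differed from control in vector and drug as well as in DOT1L, and the parts of these cannot be told apart. The libraries are called technical replicates of 1 experiment in some places of the study and biological replicates in others, so p-values cover the variation among these libraries only, and that may be technical.

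Integrins are receptors made of an alpha and a beta chain that span the cell membrane. They bind matrix proteins or other cells on the outside and link to actin through talin and kindlin on the inside, and the pairing of chains sets the ligand. Laminins are secreted trimers of an alpha, a beta and a gamma chain that form the sheet of basement membranes, where integrins made with ITGA3, ITGA6 or ITGA7 bind them. Fibroblasts use integrins to hold fibronectin and collagen, and av integrins (made with ITGAV) also free TGF-beta from its latent form.

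Some of these genes are neighbours in the genome (GRCh38, GENCODE 44 gene spans). ITGA1 (chr5:52787916-52959209) and ITGA2 (chr5:52989340-53094779) lie side by side, as do LAMB1 (chr7:107923799-108003213) and LAMB4 (chr7:108023548-108130361).

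The labels were checked first on the targeted genes. DOT1L stood at 29.1 to 33.5 CPM (counts scaled to library size) in control, 82.2 to 88.4 with RAS, 10.2 to 11.3 with RAS/shDOT1L and 191 to 208 with DOT1L OE. HRAS stood at 82.9 to 88.5 CPM in control and 73.2 to 83.3 in DOT1L OE, at 492 to 511 in RAS and at 261 to 287 in RAS/shDOT1L. HRAS was thus 1.80-fold lower in RAS/shDOT1L than in the RAS libraries (log2 change -0.85, edgeR adjusted p = 3.87e-16; -0.41 with an offset for GC content), and its part in the differences between these groups was not tested. Markers of fibroblasts summed to 22610 to 22920 CPM in control, 17120 to 17630 with RAS, 17730 to 18550 with RAS/shDOT1L and 18480 to 19500 with DOT1L OE. Of 12 such markers, 10 were lower and 1 higher in RAS against control, beside 32.0% and 31.9% of all genes. In RAS/shDOT1L against control 10 were lower and 1 higher, beside 27.6% and 27.9%. In DOT1L OE against control 8 were lower and 3 higher, beside 29.9% in each direction. In bulk RNA, fewer cells of a type and less RNA per cell cannot be told apart. Changes also moved with the GC content of transcripts: in RAS against control the median log2 change was -0.63 in the 10% of genes lowest in GC and 0.59 in the highest 10%, and for RAS/shDOT1L over RAS the same medians were 0.42 and -0.44. A fit with an offset for GC content (the GC offset) is therefore given beside many of the integrin and laminin values that it changed. It is also drawn as open diamonds in the plot of changes, including for values that are printed without it. Scaling by library size alone moved the median of all genes by -0.20 in RAS against control, where 3256 genes were then higher and 5573 lower in place of 4327 and 4343, and by -0.12 in RAS/shDOT1L against control, where 3037 were higher and 4561 lower in place of 3775 and 3726.

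The mRNAs of a few chains stood far above the rest. On the scale of mean CPM per kb of transcript, which allows genes to be compared, ITGB1, the beta chain of most matrix receptors, led in control at 563 ± 16.8 (mean ± SD, n = 3), followed by ITGA5 at 295 ± 3.19, LAMC1 at 122 ± 0.696 and ITGB5 at 122 ± 3.09. LAMC1 and ITGB5 overlapped, while ITGB1 and ITGA5 each stood clear of the next gene. In RAS the order of the top pair was turned, with ITGA5 at 479 ± 10.5 and ITGB1 at 450 ± 1.76 CPM per kb and no overlap between them. These levels carry no GC correction, and with the GC offset the log2 changes from control to RAS were 0.26 for ITGA5 and 0.18 for ITGB1 in place of 0.70 and -0.33. In DOT1L OE, LAMB1 at 96.2 ± 1.31 CPM per kb took the place after ITGB1 and ITGA5, above ITGB5 at 84.8 ± 3.62. ITGA5 made up 65.5% ± 0.397 of the summed integrin alpha level in control, 71.2% ± 0.375 with RAS, 68.6% ± 0.237 with RAS/shDOT1L and 56.3% ± 1.36 with DOT1L OE. ITGA2 held 12.4% ± 0.642 of it in DOT1L OE against 4.15% ± 0.154 in control. ITGB1 held 81.6% ± 0.652 of the integrin beta level in control and 70.7% ± 0.549 in RAS, where ITGB5 held 27.1% ± 0.602. The summed integrin alpha level was 450 ± 2.75 CPM per kb in control, 672 ± 12.01 with RAS, 618 ± 18.2 with RAS/shDOT1L and 352 ± 5.62 with DOT1L OE. The summed beta level was 690 ± 16.4, 636 ± 5.76, 662 ± 21.9 and 410 ± 9.40 CPM per kb in the same order.

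Laminin chains were unequal in level, with alpha chains far below beta and gamma chains. The summed laminin alpha level lay between 6.61 and 8.43 CPM per kb over all 12 libraries, while the beta sum ran from 64.4 to 174 and the gamma sum from 65.1 to 127. The gamma sum was higher than the beta sum in control (126 ± 0.982 against 96.2 ± 0.385 CPM per kb) and lower in RAS (79.3 ± 0.565 against 104 ± 0.759) and in DOT1L OE (67.9 ± 2.45 against 170 ± 3.94). In RAS/shDOT1L the gamma and beta sums overlapped, at 69.3 ± 3.60 and 67.7 ± 2.90 CPM per kb. These sums carry no GC correction. With the GC offset the log2 change of LAMB2 from control to RAS turned from a rise to -0.20. The order of the sums under that offset was not computed. LAMA4 was the main alpha chain in each group, with 41.6% ± 3.13 of the alpha level in control and 60.9% ± 4.12 in RAS. LAMA2 held 34.3% ± 2.67 in control and 12.9% ± 2.48 in RAS.

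**Figure D1:**
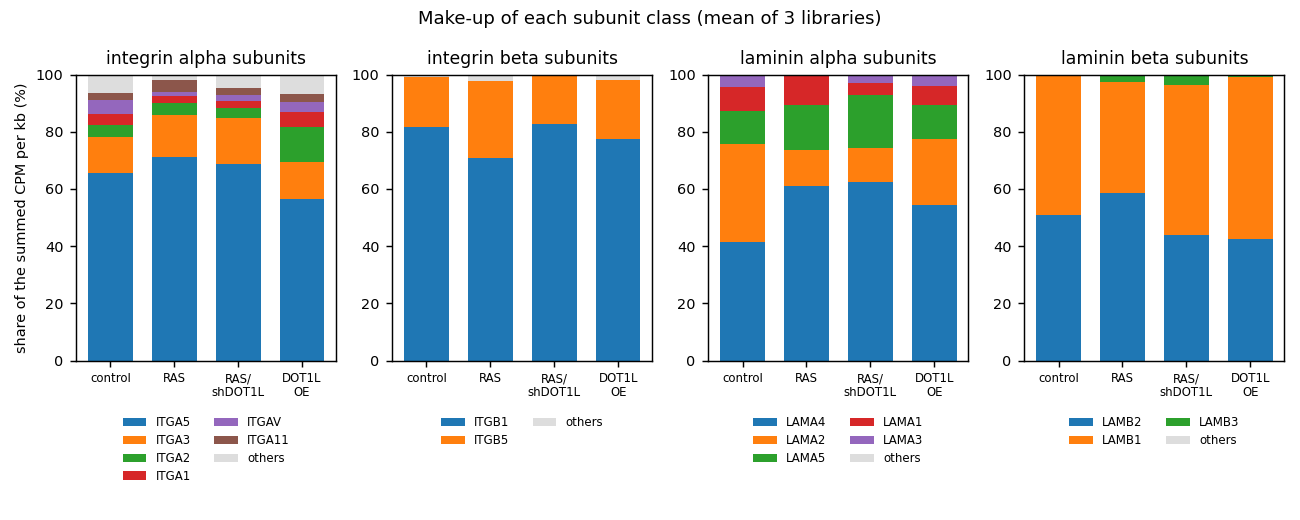
Share of each chain in the summed CPM per kb of its class (y axis, %), for the 4 groups (x axis), as stacked means of 3 libraries. The classes are integrin alpha, integrin beta, laminin alpha and laminin beta; ITGA5 and ITGB1 hold most of theirs in every group, LAMA4 leads the laminin alpha chains in each group, with its smallest share in control, and the share of ITGA2 is largest in DOT1L OE.

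Integrin genes moved in both directions in every comparison. In RAS against control, 12 of the 17 integrin genes tested passed the edgeR test at an adjusted p under 0.05, 6 higher and 6 lower, beside 64.0% of all genes tested (31.9% higher, 32.0% lower). The higher genes were ITGA2, ITGA3, ITGA5, ITGA11, ITGB3 and ITGB5, and the lower ones were ITGA1, ITGA4, ITGA6, ITGAE, ITGAV and ITGB1. The median log2 change of the 17 was -0.33 (all genes -0.043) and turned to 0.18 with the GC offset, where 8 were higher and 6 lower, beside 53.3% of all genes. For a change of over 1.5-fold, 4 were higher and 4 lower, beside 26.9% of all genes (13.4% higher, 13.6% lower). Set against RAS, RAS/shDOT1L had 10 of 15 called, 4 higher and 6 lower, beside 52.7% of all genes (26.3% higher, 26.4% lower). The median was -0.16 (all genes 0.028) and became -0.42 with the GC offset, again with 4 higher and 6 lower, beside 46.6% of all genes. Over 1.5-fold, 2 were higher and 3 lower, beside 17.0% of all genes (8.34% higher, 8.62% lower). DOT1L OE had 13 of 18 called relative to control, 4 higher and 9 lower, beside 59.9% of all genes (29.9% in each direction), with a median of -0.21 (all genes 0.006); the GC offset gave 5 higher and 8 lower, beside 59.6%. Over 1.5-fold, 2 were higher and 5 lower, beside 20.8% (11.2% higher, 9.58% lower). RAS/shDOT1L relative to control had 15 of 17 called, 5 higher and 10 lower, beside 55.5% of all genes (27.9% higher, 27.6% lower), with a median of -0.22 (all genes -0.009); the GC offset gave 6 higher and 9 lower, beside 54.9%. Over 1.5-fold, 1 was higher and 7 lower, beside 19.1% (9.44% higher, 9.68% lower). Comparisons that use the same control or RAS libraries are not independent of each other.

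Among laminin genes, 11 of the 12 were tested in each comparison. In RAS against control 5 were higher and 4 lower, beside 31.9% and 32.0% of all genes, with a median log2 change of 0.34 (all genes -0.043). Over 1.5-fold, 1 was higher and 3 lower, beside 13.4% and 13.6% of all genes. With the GC offset 3 were higher and 5 lower, beside 53.3% of all genes called, and the median was -0.12. In RAS/shDOT1L against RAS 1 was higher and 4 lower, beside 26.3% and 26.4% of all genes (median -0.048, all genes 0.028). There 2 were higher and 4 lower with the GC offset, beside 46.6% of all genes called, and 2 and 3 when scaled by library size only. In DOT1L OE against control 4 were higher and 2 lower, beside 29.9% in each direction (median 0.014, all genes 0.006). In RAS/shDOT1L against control 4 were higher and 5 lower, beside 27.9% and 27.6% (median -0.39, all genes -0.009). Over 1.5-fold, in the same order of comparisons, 1, 2 and 1 were higher and 2, 1 and 3 lower, beside 17.0%, 20.8% and 19.1% of all genes. Set beside the share of all genes called, the total of 9 of 11 in RAS against control compared with 64.0%, 5 of 11 with 52.7%, 6 of 11 with 59.9% and 9 of 11 with 55.5%. The genes that passed a filter on low counts include some that passed through 1 group where they were high, so these totals describe the genes tested and not all 38.

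**Figure D2:**
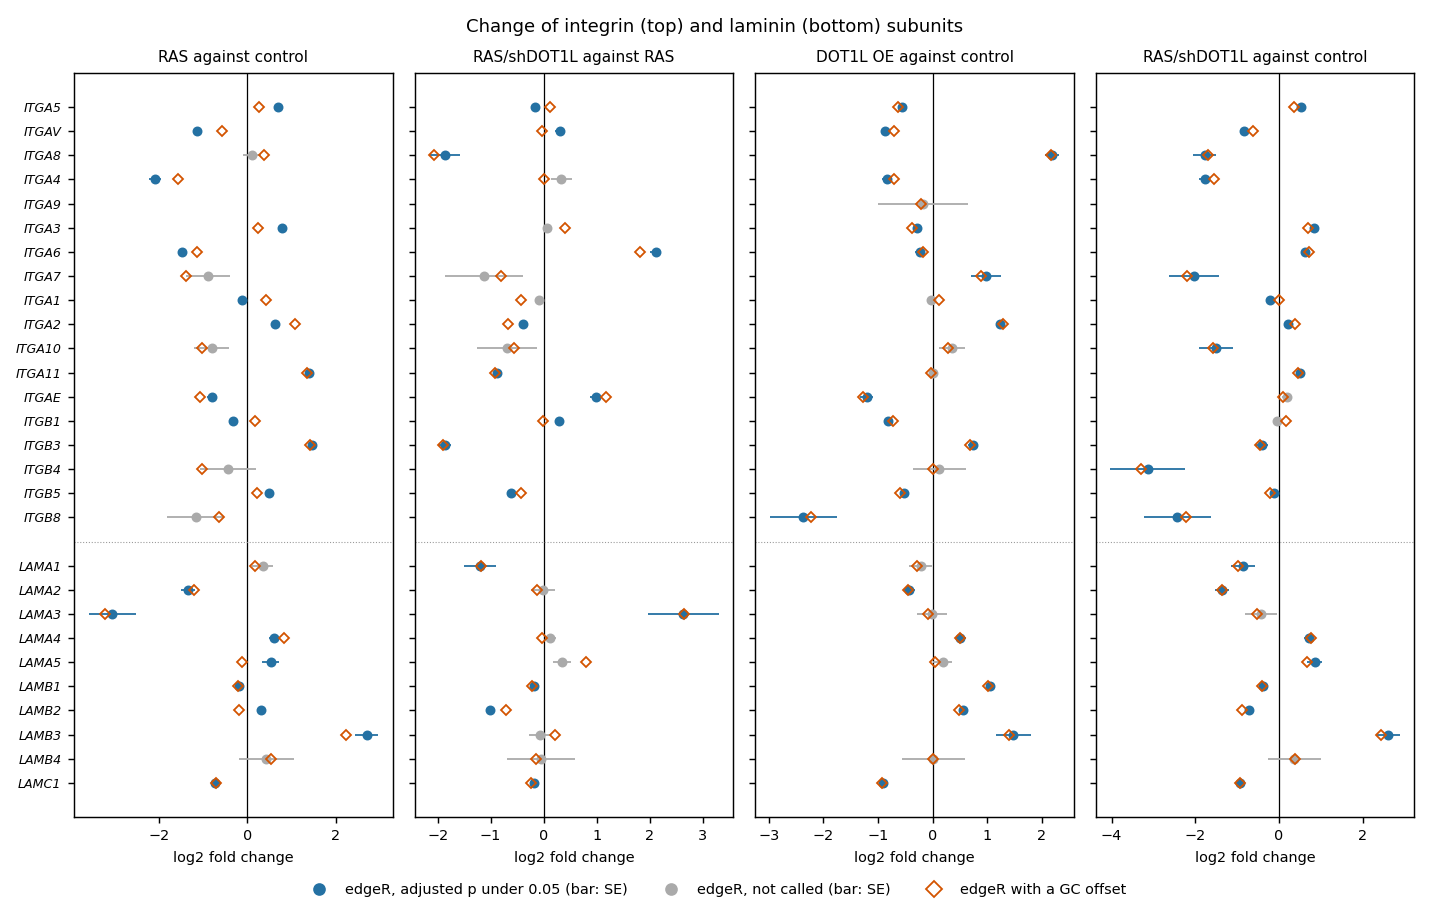
log2 fold change (x axis) of the integrin and laminin genes described here (y axis) in the 4 comparisons. Filled points with SE bars are the edgeR fit, blue where the adjusted p was under 0.05, and open diamonds are the same fit with the GC offset. The 2 fits lie apart for RAS against control in genes of low GC content such as ITGA1 and ITGAV and of high GC content such as LAMA5, and close together in DOT1L OE against control.

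Of the receptors for fibronectin and other ligands with an RGD sequence, ITGA5 was the most abundant. ITGA5, the fibronectin receptor's alpha chain, stood at 1263, 1237 and 1258 CPM in the control libraries, 2078, 2038 and 1989 with RAS, 1739, 1832 and 1838 with RAS/shDOT1L and 827, 859 and 844 under DOT1L OE. No group overlapped another. ITGA5 rose 1.62-fold in RAS (log2 fold change 0.70 with an SE of 0.028, edgeR adjusted p = 1.37e-20), a log2 change of 0.26 with the GC offset (adjusted p = 3.60e-09). It fell 1.48-fold in DOT1L OE (log2 fold change -0.57 with an SE of 0.036, edgeR adjusted p = 4.23e-15). Between RAS/shDOT1L and RAS the difference was small and turned with the GC offset, from a log2 change of -0.16 (edgeR adjusted p = 0.000364) to 0.11 (adjusted p = 0.0128).

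ITGAV fell in both RAS and DOT1L OE. Its alpha chain pairs with several beta chains, and such receptors bind vitronectin, fibronectin and latent TGF-beta. ITGAV stood at 161, 154 and 151 CPM in the control libraries, 62.8, 80.3 and 69.1 with RAS, 75.6, 82.8 and 102 with RAS/shDOT1L and 87.2, 85.7 and 81.4 under DOT1L OE. Control lay above each other library, and RAS and RAS/shDOT1L overlapped. ITGAV was 2.20-fold lower in RAS than in control (log2 fold change -1.14 with an SE of 0.070, edgeR adjusted p = 1.09e-15), a log2 change of -0.58 with the GC offset (adjusted p = 1.45e-08), and 1.83-fold lower in DOT1L OE than in control (log2 fold change -0.87 with an SE of 0.056, edgeR adjusted p = 9.09e-15). Its log2 change of 0.32 in RAS/shDOT1L against RAS (edgeR adjusted p = 0.00527) was -0.040 with the GC offset (adjusted p = 0.758) and 0.23 when RAS replicate 1 was left out (adjusted p = 0.0753), and it was 0.18 without RAS/shDOT1L replicate 3 (adjusted p = 0.129).

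ITGA8 showed the largest rise of the 18 integrin genes tested in DOT1L OE. ITGA8, an alpha chain of mesenchymal cells that binds nephronectin and other RGD ligands, stood at 8.05, 6.95 and 7.14 CPM in the control libraries, 8.94, 6.97 and 7.91 with RAS, 2.02, 1.94 and 2.46 with RAS/shDOT1L and 40.8, 30.5 and 29.6 under DOT1L OE. Control and RAS overlapped, RAS/shDOT1L lay below them and DOT1L OE above. ITGA8 was 4.56-fold higher with DOT1L OE than in control (log2 fold change 2.19 with an SE of 0.132, edgeR adjusted p = 1.58e-15). It was 3.65-fold lower in RAS/shDOT1L than in the RAS libraries (log2 fold change -1.87 with an SE of 0.294, edgeR adjusted p = 2.11e-06). Its log2 change in RAS against control was 0.10 (SE 0.204, edgeR adjusted p = 0.671), or 0.39 with the GC offset (adjusted p = 0.111).

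The alpha chains that bind VCAM1 and fibronectin were ITGA4 and ITGA9. ITGA4 stood at 43.5, 46.3 and 48.3 CPM in the control libraries, 9.65, 13.4 and 9.13 with RAS, 11.8, 11.4 and 16.8 with RAS/shDOT1L and 27.7, 23.3 and 26.1 under DOT1L OE. Control was highest and DOT1L OE came next, with no overlap, while RAS and RAS/shDOT1L overlapped. ITGA4 fell 4.28-fold in RAS (log2 fold change -2.10 with an SE of 0.130, edgeR adjusted p = 1.45e-15) and 1.79-fold in DOT1L OE (log2 fold change -0.84 with an SE of 0.091, edgeR adjusted p = 1.76e-09). With the GC offset these log2 changes were -1.57 in RAS and -0.71 in DOT1L OE. RAS/shDOT1L and RAS were not told apart (log2 fold change 0.33 with an SE of 0.196, edgeR adjusted p = 0.159; 0.003 with the GC offset, adjusted p = 0.991). Exons of CERKL on the other strand share 26.4% of the exon bases of ITGA4, and the strand setting of the counts is not given, so reads of these genes could not be told apart there. ITGA9 held 0.124 to 0.639 CPM as group means and was tested in DOT1L OE against control alone (edgeR adjusted p = 0.867).

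Laminin-binding alpha chains went different ways. ITGA6 stood at 56.4, 53.6 and 54.1 CPM in the control libraries, 18.1, 19.1 and 21.6 with RAS, 82.5, 82.9 and 85.2 with RAS/shDOT1L and 53.4, 42.5 and 43.5 under DOT1L OE. RAS was the lowest group and RAS/shDOT1L the highest, with no overlap. ITGA6 fell 2.80-fold in RAS (log2 fold change -1.48 with an SE of 0.102, edgeR adjusted p = 1.85e-14) and was 4.32-fold higher in RAS/shDOT1L than in RAS (log2 fold change 2.11 with an SE of 0.098, edgeR adjusted p = 1.11e-18). With the GC offset the log2 changes were -1.14 in RAS against control and 1.81 in RAS/shDOT1L against RAS. RAS/shDOT1L was also above control (1.53-fold, log2 change 0.62, SE 0.074, edgeR adjusted p = 4.27e-08). Its lower level in DOT1L OE (log2 change -0.23, edgeR adjusted p = 0.0155) lost its call with the GC offset (adjusted p = 0.0700), when scaled by library size only (adjusted p = 0.113), without DOT1L OE replicate 2 (log2 change -0.17, adjusted p = 0.141) and without DOT1L OE replicate 3 (log2 change -0.19, adjusted p = 0.0884).

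ITGA3, whose receptor with ITGB1 binds the laminins of epithelia, had a mean of 276 ± 11.8 CPM in the control libraries, 477 ± 15.8 with RAS, 494 ± 12.95 with RAS/shDOT1L and 226 ± 5.73 under DOT1L OE. It rose 1.73-fold in RAS (log2 fold change 0.79 with an SE of 0.043, edgeR adjusted p = 4.56e-17), a log2 change of 0.25 with the GC offset (adjusted p = 7.78e-06), and fell 1.21-fold in DOT1L OE (log2 fold change -0.28 with an SE of 0.048, edgeR adjusted p = 6.00e-06). RAS/shDOT1L and RAS overlapped (log2 change 0.069, edgeR adjusted p = 0.219), though with the GC offset ITGA3 was higher in RAS/shDOT1L by 0.40 on the log2 scale (adjusted p = 7.46e-09) and when scaled by library size only by 0.14 (adjusted p = 0.0102). ITGA7, the laminin receptor chain of muscle, was low at 2.28 ± 0.461 CPM in the control libraries, 1.22 ± 0.621 with RAS, 0.548 ± 0.418 with RAS/shDOT1L and 4.47 ± 0.324 under DOT1L OE. It was 1.97-fold higher in DOT1L OE (edgeR adjusted p = 0.00244; adjusted p = 0.0501 in a fit over all 4 groups) and 4.09-fold lower in RAS/shDOT1L than in control (edgeR adjusted p = 0.00533).

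Among the collagen-binding alpha chains, ITGA11 rose in RAS and ITGA2 in both RAS and DOT1L OE. ITGA11, the receptor chain for fibrillar collagen that marks activated fibroblasts, stood at 98.7, 119 and 103 CPM in the control libraries, 289, 275 and 275 with RAS, 152, 146 and 151 with RAS/shDOT1L and 112, 104 and 105 under DOT1L OE. RAS was highest and RAS/shDOT1L came next without overlap, while DOT1L OE overlapped control. ITGA11 rose 2.62-fold in RAS (log2 fold change 1.39 with an SE of 0.058, edgeR adjusted p = 2.67e-20) and was 1.84-fold lower in RAS/shDOT1L than in the RAS libraries (log2 fold change -0.88 with an SE of 0.055, edgeR adjusted p = 3.07e-15). It remained 1.41-fold above control in RAS/shDOT1L (log2 fold change 0.49 with an SE of 0.067, edgeR adjusted p = 3.52e-07). In DOT1L OE its log2 change was 0.014 (SE 0.064, edgeR adjusted p = 0.865; -0.022 with the GC offset).

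ITGA2, the other major collagen receptor chain and also a platelet receptor, was highest in DOT1L OE. It stood at 147, 150.3 and 141 CPM in the control libraries, 232, 219 and 223 with RAS, 151, 166 and 191 with RAS/shDOT1L and 363, 343 and 319 under DOT1L OE. The 4 groups did not overlap. ITGA2 rose 2.34-fold in DOT1L OE (log2 fold change 1.23 with an SE of 0.051, edgeR adjusted p = 9.00e-20) and 1.53-fold in RAS (log2 fold change 0.62 with an SE of 0.050, edgeR adjusted p = 1.62e-12), where the GC offset gave a log2 change of 1.09 (adjusted p = 3.97e-18). In RAS/shDOT1L it was 1.31-fold lower than in RAS (log2 fold change -0.39 with an SE of 0.065, edgeR adjusted p = 6.89e-06; -0.68 with the GC offset). Its small excess over control in RAS/shDOT1L (log2 change 0.22, edgeR adjusted p = 0.00670) was 0.39 with the GC offset and lost its call without RAS/shDOT1L replicate 3 (log2 change 0.12, adjusted p = 0.113) and when scaled by library size only (log2 change 0.10, adjusted p = 0.209).

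ITGA1, the neighbour of ITGA2 on chromosome 5, had small changes that depended on the GC offset. Its means were 195 ± 6.41 CPM in the control libraries, 179 ± 8.08 with RAS, 166 ± 14.3 with RAS/shDOT1L and 192 ± 7.28 under DOT1L OE. The log2 change of -0.13 in RAS (edgeR adjusted p = 0.0294) became 0.42 with the GC offset (adjusted p = 2.31e-08). It was not called without control replicate 1 (-0.14), control replicate 3 (-0.11), RAS replicate 1 (-0.11) or RAS replicate 3 (-0.10), nor with DESeq2 size factors or the DESeq2 Wald test (both -0.11) or in a fit over all 4 groups (-0.13). In RAS/shDOT1L against control the log2 change of -0.22 (edgeR adjusted p = 0.00224) became -0.006 with the GC offset (adjusted p = 0.937). Against RAS, RAS/shDOT1L gave -0.084 (edgeR adjusted p = 0.280), and -0.42 with the GC offset (adjusted p = 6.38e-07). ITGA10, a collagen receptor of cartilage, was low at 3.66 ± 0.675 CPM in control and 1.27 ± 0.375 in RAS/shDOT1L, a 2.86-fold fall (log2 fold change -1.51 with an SE of 0.407, edgeR adjusted p = 0.00232).

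ITGAE, whose chain binds E-cadherin in lymphocytes, was found at moderate levels. It stood at 43.3, 32.2 and 43.98 CPM in the control libraries, 20.9, 24.6 and 23.1 with RAS, 43.6, 42.8 and 48.6 with RAS/shDOT1L and 14.1, 20.4 and 16.9 under DOT1L OE. RAS/shDOT1L overlapped control, and RAS and DOT1L OE lay below both. ITGAE fell 1.74-fold in RAS (log2 fold change -0.80 with an SE of 0.119, edgeR adjusted p = 5.30e-07) and 2.31-fold in DOT1L OE (log2 fold change -1.21 with an SE of 0.122, edgeR adjusted p = 3.37e-10), and was 1.99-fold higher in RAS/shDOT1L than in RAS (log2 fold change 1.00 with an SE of 0.114, edgeR adjusted p = 4.69e-09). With the GC offset the log2 change of ITGAE was -1.07 in RAS against control and 1.17 in RAS/shDOT1L against RAS. Its partner chain ITGB7 had group means of 0.543 CPM at most, and ZNF740 on the other strand shares 42.3% of its exon bases. Exons of HASPIN on the other strand share 6.5% of the exon bases of ITGAE.

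Of the beta chains tested, ITGB3 showed the largest changes between control and RAS and between RAS and RAS/shDOT1L. ITGB3, which pairs with ITGAV in matrix receptors and with ITGA2B on platelets, stood at 29.2, 27.8 and 26.9 CPM in the control libraries, 76.2, 81.9 and 74.4 with RAS, 22.4, 15.7 and 24.9 with RAS/shDOT1L and 45.3, 48.6 and 45.0 under DOT1L OE. The order was RAS, DOT1L OE, control and RAS/shDOT1L, with no overlap. ITGB3 rose 2.77-fold in RAS (log2 fold change 1.47 with an SE of 0.084, edgeR adjusted p = 1.94e-16) and 1.66-fold in DOT1L OE (log2 fold change 0.73 with an SE of 0.086, edgeR adjusted p = 8.70e-09). It was 3.65-fold lower in RAS/shDOT1L than in the RAS libraries (log2 fold change -1.87 with an SE of 0.117, edgeR adjusted p = 3.14e-15). Its log2 change of -0.41 in RAS/shDOT1L against control (edgeR adjusted p = 0.0132) was not called without control replicate 1 (-0.38, adjusted p = 0.0575) or without RAS/shDOT1L replicate 2 (-0.24, adjusted p = 0.125). Exons of another annotated protein-coding gene on the same strand share 33.2% of the exon bases of ITGB3. That gene had 0 counts in every library, and how reads in the shared bases were counted is not known.

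ITGB1 fell in DOT1L OE. Its means were 2104 ± 62.9 CPM in the control libraries, 1681 ± 6.56 with RAS, 2040.0 ± 75.8 with RAS/shDOT1L and 1185 ± 48.3 under DOT1L OE. The fall in DOT1L OE was 1.77-fold (log2 fold change -0.82 with an SE of 0.036, edgeR adjusted p = 2.54e-19). The smaller fall in RAS (log2 fold change -0.33 with an SE of 0.028, edgeR adjusted p = 4.28e-12) became 0.18 with the GC offset (adjusted p = 2.36e-06). The log2 change of 0.30 in RAS/shDOT1L against RAS (edgeR adjusted p = 1.13e-08) became -0.012 with it (adjusted p = 0.817), and that of -0.039 in RAS/shDOT1L against control (edgeR adjusted p = 0.365) became 0.16 (adjusted p = 0.000166), or -0.15 when scaled by library size only (adjusted p = 0.000388).

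ITGB5, another partner of ITGAV, had means of 542 ± 13.7 CPM in the control libraries, 766 ± 23.0 with RAS, 496 ± 6.64 with RAS/shDOT1L and 377 ± 16.1 under DOT1L OE. It rose 1.41-fold in RAS (log2 fold change 0.50 with an SE of 0.036, edgeR adjusted p = 7.56e-14; 0.23 with the GC offset), fell 1.44-fold in DOT1L OE (log2 fold change -0.52 with an SE of 0.043, edgeR adjusted p = 3.79e-12) and was 1.52-fold lower in RAS/shDOT1L than in the RAS libraries (log2 fold change -0.61 with an SE of 0.043, edgeR adjusted p = 7.11e-14). The remaining beta chains were near the limit of detection. ITGB8, which frees TGF-beta with ITGAV, fell from 1.30 ± 0.246 CPM in control to 0.249 ± 0.143 in DOT1L OE (edgeR adjusted p = 0.00128) and 0.237 ± 0.264 in RAS/shDOT1L (edgeR adjusted p = 0.0116; 0.0713 without control replicate 1 and 0.0650 without RAS/shDOT1L replicate 2). ITGB4, the hemidesmosome chain that pairs with ITGA6, fell from 1.19 ± 0.474 CPM in control to 0.130 ± 0.173 in RAS/shDOT1L (edgeR adjusted p = 0.00399), where the counts were 5, 0 and 1.

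**Figure D3:**
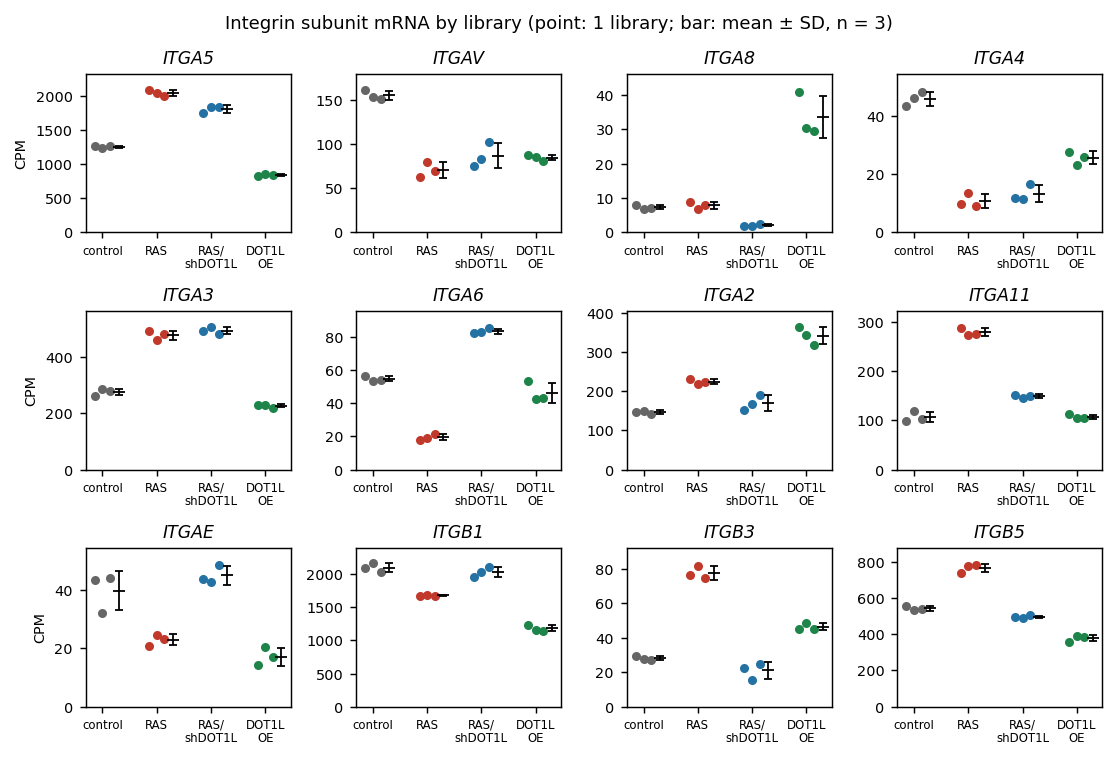
Levels of 12 integrin genes in CPM (y axis, starting at 0), 1 point per library, with the mean and SD of 3 libraries beside each group. ITGA8 and ITGA2 are highest in DOT1L OE, ITGA11 and ITGB3 in RAS, and ITGA6 is lowest in RAS and highest in RAS/shDOT1L.

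The 8 integrin genes that were tested in no comparison stayed near the floor. ITGA2B, ITGAD, ITGAL, ITGAM, ITGAX, ITGB2, ITGB6 and ITGB7 passed the count filter in no comparison, with group means of at most 0.607 CPM. ITGAM had 0 counts in every library, which allows up to 0.0487 to 0.0636 CPM per group (3 counts over a group, counting error only). ITGAX had 0 counts in control and 12, 13 and 5 in RAS, and ITGB7 had 0 in control and 19, 4 and 4 in RAS. Leukocyte markers summed to 2.79 to 4.1 CPM in control, 8.64 to 9.96 with RAS, 2.45 to 6.69 with RAS/shDOT1L and 5.43 to 8.03 with DOT1L OE. Of 4 tested in RAS against control 3 were higher and 0 lower, beside 31.9% and 32.0% of all genes. PTPRC, the common leukocyte antigen, had a group mean of 0.174 CPM at most.

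Among laminin alpha chains, LAMA2 fell with the oncogene. LAMA2, the chain of the laminin around muscle fibres, stood at 21.2, 23.8 and 25.5 CPM in the control libraries, 10.8, 7.15 and 9.77 with RAS, 8.48, 6.84 and 11.9 with RAS/shDOT1L and 18.9, 17.9 and 15.2 under DOT1L OE. Control was highest and DOT1L OE came next, and RAS and RAS/shDOT1L overlapped. LAMA2 was 2.54-fold lower in RAS than in control (log2 fold change -1.34 with an SE of 0.157, edgeR adjusted p = 5.12e-09) and 1.35-fold lower in DOT1L OE (log2 fold change -0.43 with an SE of 0.116, edgeR adjusted p = 0.00179). In RAS/shDOT1L against RAS its log2 change was -0.009 (SE 0.224, edgeR adjusted p = 0.976; -0.13 with the GC offset, adjusted p = 0.669).

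LAMA4, the chain of vessel and mesenchymal basement membranes, went the other way, with means of 21.3 ± 2.77 CPM in the control libraries, 32.5 ± 0.700 with RAS, 35.02 ± 1.86 with RAS/shDOT1L and 30.2 ± 0.351 under DOT1L OE. It rose 1.53-fold in RAS (log2 fold change 0.61 with an SE of 0.118, edgeR adjusted p = 3.46e-05), 1.65-fold in RAS/shDOT1L against control (log2 fold change 0.72 with an SE of 0.118, edgeR adjusted p = 6.69e-06) and 1.42-fold in DOT1L OE (log2 fold change 0.51 with an SE of 0.106, edgeR adjusted p = 0.000110). Endothelial markers moved as well, with sums of 65.9 to 72.9 CPM in control, 91.1 to 95.8 with RAS, 41.0 to 49.6 with RAS/shDOT1L and 154 to 162 with DOT1L OE, and their part in the levels of LAMA4 was not tested. TEK made up most of these sums in control (67.1 CPM on average) and fell to 23.5 in RAS/shDOT1L. Of the 5 endothelial markers tested there against control 4 were higher and 1 lower, beside 27.9% and 27.6% of all genes. Among the higher ones were TIE1 (0.409 to 6.01 CPM) and ESAM (1.59 to 10.1 CPM). Of those markers, CDH5 and EMCN had 0 counts in control, RAS and DOT1L OE.

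LAMA1, the chain of early embryonic laminin, stood at 6.55, 5.12 and 5.48 CPM in the control libraries, 5.18, 7.39 and 9.26 with RAS, 2.80, 2.57 and 3.97 with RAS/shDOT1L and 5.07, 4.16 and 5.47 under DOT1L OE. RAS/shDOT1L lay below each other library. LAMA1 was 2.30-fold lower in RAS/shDOT1L than in the RAS libraries (log2 fold change -1.20 with an SE of 0.298, edgeR adjusted p = 0.000942) and 1.82-fold lower than in control (log2 change -0.87, edgeR adjusted p = 0.0115; -0.76 and adjusted p = 0.0645 without control replicate 1). In RAS against control its log2 change of 0.34 (edgeR adjusted p = 0.207; 0.16 with the GC offset) was 0.54 and called without RAS replicate 1 (adjusted p = 0.0457). LAMA5 had means of 9.18 ± 2.00 CPM in the control libraries, 13.3 ± 2.84 with RAS, 16.5 ± 1.40 with RAS/shDOT1L and 10.4 ± 2.27 under DOT1L OE. Its log2 change of 0.53 in RAS (edgeR adjusted p = 0.0151) was -0.12 with the GC offset (adjusted p = 0.633) and was not called without control replicate 1 (0.41), control replicate 2 (0.47) or RAS replicate 3 (0.34), nor when scaled by library size only (0.33). RAS/shDOT1L stood 1.80-fold above control (log2 fold change 0.85 with an SE of 0.175, edgeR adjusted p = 0.000141). Against RAS its log2 change was 0.34 (edgeR adjusted p = 0.0962), 0.80 with the GC offset (adjusted p = 0.000185) 0.41 when scaled by library size only (adjusted p = 0.0435) and 0.52 when RAS replicate 3 was left out (adjusted p = 0.0227).

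The main laminin beta chains, LAMB1 and LAMB2, were both highest in DOT1L OE. LAMB1, the most widely used beta chain, stood at 262, 268 and 259 CPM in the control libraries, 232, 226 and 229 with RAS, 190, 205 and 205 with RAS/shDOT1L and 542, 552 and 537 under DOT1L OE. The 4 groups did not overlap. LAMB1 rose 2.07-fold in DOT1L OE (log2 fold change 1.05 with an SE of 0.042, edgeR adjusted p = 4.34e-20). It fell by little in RAS (log2 fold change -0.20 with an SE of 0.045, edgeR adjusted p = 0.000229) and lay lower again in RAS/shDOT1L than in RAS (log2 fold change -0.18 with an SE of 0.055, edgeR adjusted p = 0.00701), a call that was lost when scaled by library size only (log2 change -0.11, adjusted p = 0.104).

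LAMB2, the beta chain of kidney and nerve-muscle basement membranes, stood at 278, 277 and 284 CPM in the control libraries, 345, 345 and 351 with RAS, 162, 175 and 171 with RAS/shDOT1L and 410, 424 and 398 under DOT1L OE. The order was DOT1L OE, RAS, control and RAS/shDOT1L, with no overlap. LAMB2 was 2.02-fold lower in RAS/shDOT1L than in the RAS libraries (log2 fold change -1.02 with an SE of 0.053, edgeR adjusted p = 3.13e-17) and 1.65-fold lower than in control (log2 fold change -0.72 with an SE of 0.052, edgeR adjusted p = 1.40e-12). Over the alternative fits described below, its log2 change in RAS/shDOT1L against RAS ran from -1.05 to -0.70. In DOT1L OE it rose 1.47-fold (log2 fold change 0.56 with an SE of 0.044, edgeR adjusted p = 9.70e-13). Its log2 change of 0.31 in RAS against control (edgeR adjusted p = 7.48e-08) was -0.20 with the GC offset (adjusted p = 0.000118). LAMB4 held group means of 0.757 to 1.02 CPM and was called in no comparison (edgeR adjusted p of 0.567 to 0.985).

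LAMC1, the gamma chain of most laminins and the most abundant laminin mRNA in control, RAS and RAS/shDOT1L, was highest in control. It stood at 970 ± 5.51 CPM in the control libraries, 582 ± 1.29 with RAS, 505 ± 24.3 with RAS/shDOT1L and 513 ± 20.4 under DOT1L OE. LAMC1 fell 1.67-fold in RAS (log2 fold change -0.74 with an SE of 0.033, edgeR adjusted p = 2.10e-19), 1.89-fold in DOT1L OE (log2 fold change -0.91 with an SE of 0.039, edgeR adjusted p = 1.79e-19) and 1.91-fold in RAS/shDOT1L against control (log2 fold change -0.94 with an SE of 0.042, edgeR adjusted p = 3.54e-17). RAS/shDOT1L lay 1.14-fold below RAS (log2 fold change -0.19 with an SE of 0.045, edgeR adjusted p = 0.000733). In DOT1L OE, LAMC1 thus fell while LAMB1 and LAMB2 rose. LAMC3 passed the filter in no comparison, with 3 counts in RAS and 6 in DOT1L OE.

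LAMA3 and LAMB3 encode chains of the laminin that anchors epidermis, and they moved in opposite directions in RAS. LAMB3 stood at 2.01, 1.24 and 1.46 CPM in the control libraries, 9.83, 11.02 and 9.96 with RAS, 8.998, 11.04 and 8.77 with RAS/shDOT1L and 3.04, 5.84 and 4.21 under DOT1L OE. RAS and RAS/shDOT1L overlapped, above DOT1L OE and control. LAMB3 rose 6.51-fold in RAS (log2 fold change 2.70 with an SE of 0.265, edgeR adjusted p = 1.11e-10) and 2.78-fold in DOT1L OE (log2 fold change 1.48 with an SE of 0.316, edgeR adjusted p = 0.000153), with a log2 change of -0.078 in RAS/shDOT1L against RAS (SE 0.195, edgeR adjusted p = 0.765) that was 0.21 with the GC offset (adjusted p = 0.402). LAMA3 fell from counts of 60, 73 and 56 in control (3.28 ± 0.582 CPM) to 10, 7 and 2 in RAS (0.383 ± 0.237), and held 23, 37 and 54 counts in RAS/shDOT1L (2.41 ± 0.956). This was a fall of 8.37-fold in RAS (log2 fold change -3.07 with an SE of 0.540, edgeR adjusted p = 9.20e-06), and RAS/shDOT1L stood 6.23-fold above RAS (log2 fold change 2.64 with an SE of 0.666, edgeR adjusted p = 0.00114). Epithelial markers summed to 261 to 281 CPM in control, 113 to 126 with RAS, 338 to 363 with RAS/shDOT1L and 137 to 143 with DOT1L OE, carried by KRT8, KRT18 and KRT19. Of 5 epithelial markers tested in RAS against control 3 were lower and 2 higher, beside 32.0% and 31.9% of all genes. The higher ones were CLDN4 (2.43 to 6.31 CPM) and CLDN7 (2.43 to 7.73 CPM). CDH1 had a group mean of 0.344 CPM at most and EPCAM of 1.03, and the part of the keratin levels in these laminin values was not tested.

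**Figure D4:**
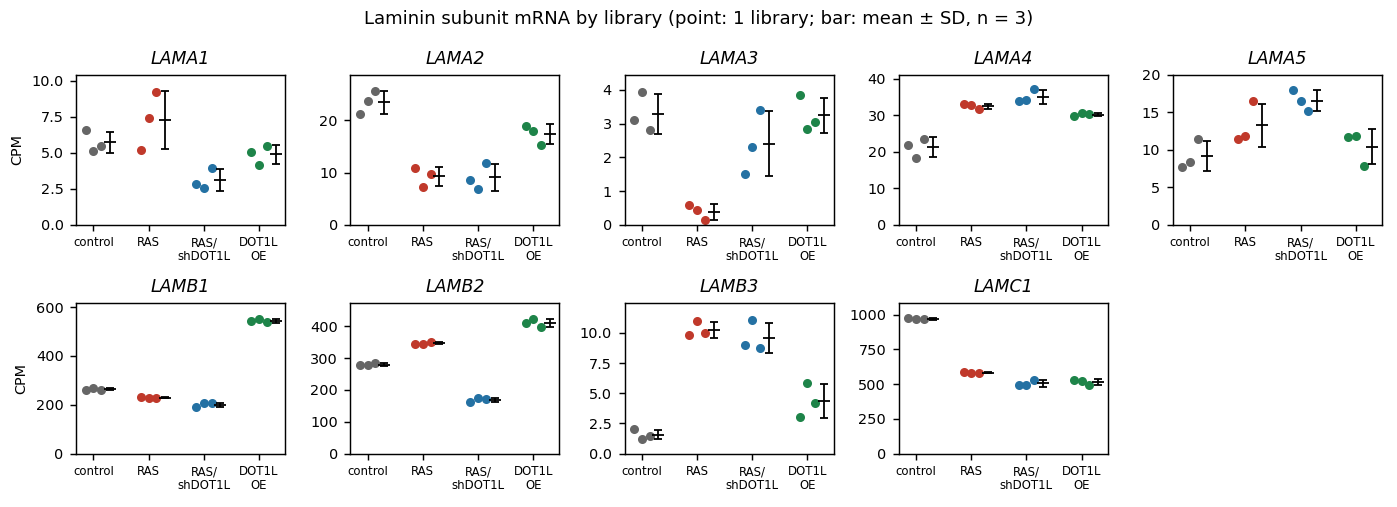
Levels of 9 laminin genes in CPM (y axis, starting at 0), 1 point per library, with the mean and SD of 3 libraries beside each group. LAMB1 and LAMB2 are highest in DOT1L OE, LAMC1 in control, LAMB3 in RAS and RAS/shDOT1L, and LAMA3 is lowest in RAS.

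The promoters were searched for short motifs of factors that RAS signalling or senescence is known to engage. RefSeq windows of 300 bases, from 250 before to 50 after a start site, were found for 26 of the 38 genes (33 windows). The motif of AP-1, TGANTCA, lay in 3 of these 33 windows (ITGA5, LAMA3 and LAMB3) and in 7.71% of 35116 windows of all genes. A relaxed C/EBP motif, TTNNGCAA, lay in 4 of them (ITGA2, ITGA5, ITGB5 and LAMB2) and in 10.5% of all. The full C/EBP palindrome TTGCGCAA and an NF-kB consensus lay in none of the 33, and in 0.151% and 1.91% of all windows. Both strands were searched, no matches overlapped, and a match describes letters, not a bound site. The 250 bases before the start are shown for LAMA3 and LAMB3, which went opposite ways in RAS, and for ITGA5 and ITGA2, the most abundant alpha chain and a chain raised in both RAS and DOT1L OE, each 5′ to 3′ on the gene's strand of GRCh38.p14, with motif matches in capitals. The LAMA3 window is chr18:23872770-23873019, plus strand, and holds AP-1 matches that begin at -125 and -69 from the start. It lies inside the gene's annotated span. The LAMB3 window is chr1:209651375-209651624, minus strand, with a match at -67, and is 1 of 3 windows for this gene. It also lies inside the gene's annotated span, and the other windows of LAMB3 held no match. The ITGA5 window is chr12:54419267-54419516, minus strand, with an AP-1 match at -6 and a relaxed C/EBP match at -28. The last base of this AP-1 match (TGAGTCA) lies past the 250 bases shown, so it is printed cut. The ITGA2 window is chr5:52989102-52989351, plus strand, with a relaxed C/EBP match at -88.
LAMA3: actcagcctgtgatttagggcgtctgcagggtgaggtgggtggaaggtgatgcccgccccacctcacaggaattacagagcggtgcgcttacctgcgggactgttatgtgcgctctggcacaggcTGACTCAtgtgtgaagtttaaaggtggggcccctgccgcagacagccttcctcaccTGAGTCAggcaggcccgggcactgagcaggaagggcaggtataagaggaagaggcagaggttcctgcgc
LAMB3: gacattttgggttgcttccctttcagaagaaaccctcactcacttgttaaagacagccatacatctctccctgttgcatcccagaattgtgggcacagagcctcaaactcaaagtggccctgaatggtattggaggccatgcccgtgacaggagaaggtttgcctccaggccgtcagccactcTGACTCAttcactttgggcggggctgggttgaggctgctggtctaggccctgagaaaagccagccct
ITGA5: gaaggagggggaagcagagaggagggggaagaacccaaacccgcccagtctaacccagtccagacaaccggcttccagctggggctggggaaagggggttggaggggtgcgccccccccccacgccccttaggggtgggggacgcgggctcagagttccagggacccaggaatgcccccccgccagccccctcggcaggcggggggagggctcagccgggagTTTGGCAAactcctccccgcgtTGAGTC
ITGA2: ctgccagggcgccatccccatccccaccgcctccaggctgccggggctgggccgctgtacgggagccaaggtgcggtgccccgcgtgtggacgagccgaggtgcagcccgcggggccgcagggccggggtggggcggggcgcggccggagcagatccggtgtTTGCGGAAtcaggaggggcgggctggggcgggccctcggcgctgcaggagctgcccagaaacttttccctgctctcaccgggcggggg

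Genes that work with these chains were read from lists of partners. Shares of all genes given beside them are from the fit without the GC offset. With the GC offset, 53.3% of all genes were called in RAS against control and 46.6% in RAS/shDOT1L against RAS. Fold changes of single partner genes are also from the fit without it, and only TGFB1 is given with the GC offset as well. Of 40 genes of the integrin adhesion complex tested in RAS against control, 10 were higher and 24 lower, beside 31.9% higher and 32.0% lower of all genes (median log2 change -0.31, all genes -0.043). With the GC offset 7 were higher and 23 lower and the median was -0.54. FERMT1, a kindlin that activates integrins, rose 8.03-fold there, from 3.58 to 28.9 CPM (edgeR adjusted p = 8.72e-17), and NEDD9, an adhesion scaffold, fell 5.50-fold (edgeR adjusted p = 1.44e-19). In RAS/shDOT1L against RAS, 16 of 40 were higher and 14 lower (19 and 7 with the GC offset), beside 26.3% and 26.4% of all genes, with FERMT2, the kindlin of fibroblasts, 3.89-fold higher (edgeR adjusted p = 8.90e-22) and TLN1, the talin that links beta chains to actin, 2.05-fold lower (edgeR adjusted p = 2.75e-20). In DOT1L OE against control, 10 of 40 were higher and 21 lower, beside 29.9% of all genes in each direction, with FERMT1 3.54-fold higher (edgeR adjusted p = 2.01e-10).

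Of 21 integrin ligands tested in RAS against control 8 were higher and 8 lower, beside 31.9% and 32.0% of all genes; with the GC offset 5 were higher and 10 lower, and the median turned from 0.041 to -0.26. ICAM1, a leukocyte adhesion ligand, rose 5.61-fold (edgeR adjusted p = 9.18e-29) and TNC, a matrix glycoprotein, 2.66-fold (edgeR adjusted p = 3.57e-22). In RAS/shDOT1L against RAS, 6 of 23 were higher and 10 lower, beside 26.3% and 26.4% of all genes, with POSTN, a ligand of av integrins, 5.29-fold lower (edgeR adjusted p = 7.29e-14). In DOT1L OE against control, 5 of 22 were higher and 13 lower, beside 29.9% of all genes in each direction (median -0.46). FN1, the main ligand of the ITGA5 receptor, had a mean of 5200 CPM in the control libraries, 3613 with RAS, 2237 with RAS/shDOT1L and 2204 under DOT1L OE, and was named here because ITGA5 is; it was 1.44-fold lower in RAS than in control (edgeR adjusted p = 5.13e-20).

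Of 20 basement membrane partners of laminin tested in RAS/shDOT1L against RAS, 2 were higher and 12 lower, beside 26.3% and 26.4% of all genes (median -0.58; with the GC offset 4 higher, 10 lower and -0.33), with AGRN, a laminin-binding proteoglycan, 2.99-fold lower (edgeR adjusted p = 1.80e-22) and COL18A1, a basement membrane collagen, 3.12-fold lower (edgeR adjusted p = 1.73e-20). Against control, RAS/shDOT1L had 3 of 19 higher and 13 lower, beside 27.9% and 27.6% of all genes. In RAS against control 10 of 20 were higher and 7 lower, beside 31.9% and 32.0% of all genes, which became 4 higher and 9 lower with the GC offset, and SMOC1, a calcium-binding matrix protein, rose 9.90-fold (edgeR adjusted p = 2.29e-21). In DOT1L OE against control 10 of 18 were higher and 5 lower, beside 29.9% of all genes in each direction. Laminin receptors other than integrins, with genes of the hemidesmosome, had 8 higher and 12 lower of 22 in RAS against control, beside the same 31.9% and 32.0% (5 and 11 with the GC offset), where UTRN, which ties dystroglycan to actin, fell 6.49-fold (edgeR adjusted p = 2.46e-20). They had 6 higher and 10 lower of 22 in RAS/shDOT1L against RAS, beside 26.3% and 26.4% of all genes, and with the GC offset 7 higher and 6 lower, the median turning from -0.15 to 0.10. In DOT1L OE against control they had 5 higher and 11 lower, beside 29.9% of all genes in each direction. Of 11 genes of TGF-beta activation by av integrins, 3 were higher and 7 lower in RAS against control, beside 31.9% and 32.0% of all genes, among them TGFB1, 2.64-fold higher (log2 change 1.40, edgeR adjusted p = 2.79e-21; 0.80 with the GC offset), and LTBP1, a binding protein of latent TGF-beta, 1.81-fold lower (edgeR adjusted p = 1.97e-18). Smooth muscle markers, which include genes of the contractile machinery that adhesion sites hold, summed to 5470 to 5493 CPM in control, 2250 to 2314 with RAS, 4815 to 5089 with RAS/shDOT1L and 1440 to 1585 with DOT1L OE. Of 8 tested in RAS against control 6 were lower, beside 32.0% of all genes, and 2 higher, beside 31.9%. The higher ones were SMTN (247.5 to 381.3 CPM) and MYH11 (0.75 to 2.49 CPM). In RAS/shDOT1L against control 4 were higher and 3 lower, beside 27.9% and 27.6% of all genes. The part of these markers in these results was not tested.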

How the data were processed

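RNA was sequenced from 12 libraries of IMR90 cells in 4 groups of 3, named from the labels. Per the methods, poly(A) RNA was reverse-transcribed with random hexamers and sequenced as paired ends. The authors aligned reads to GRCh38 with STAR (2.6.1 per the submitters' processing notes, which also name DESeq2 2; the methods name other releases) and deposited raw counts, 1 whole number for each Ensembl gene ID and library. The strand setting of these counts is not given in the sources used here, so genes that overlap on opposite strands could not be told apart.

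From the deposited counts, CPM were computed with TMM factors over all libraries, and CPM per kb with the length of the Ensembl canonical transcript of GENCODE 44. Of the 48162 IDs, 93.5% matched a symbol. The 6 libraries of a comparison were fitted apart from the others with edgeR 4.0.16 in R 4.3.3: filterByExpr, TMM, the two-sided quasi-likelihood F test and Benjamini-Hochberg adjustment over all genes tested, called at an adjusted p under 0.05; glmTreat tested for over 1.5-fold. SE is the standard error of a log2 change. Counting error is about the square root of a count, so genes under 1 CPM are known poorly. Genes were given library by library where, in at least 1 comparison, they passed the test with at least a 2-fold change and had a mean of at least 5 CPM in a group; partner lists gave up to 4 called genes with the largest change, not all of which are named, and FN1, and the library values of ITGA5 and LAMA3, were added after their values were seen. The result of 1 laminin gene is not reported here on its own, though it is part of the counts and sums. The members and lists were chosen with earlier results of these data known.

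Alternatives were DESeq2 size factors, library size alone, keeping every gene with 1 count, keeping genes with 1 CPM in 3 libraries, DESeq2 1.42.0 (Wald test), limma-voom (limma 3.58.1), 1 joint fit of the 4 groups, a block for the replicate number, an offset from 20 bins of transcript GC content, that offset with the block, and each library left out. The tests were checked on simulated data. Within groups, no pair of libraries was alike within counting noise, with chi-square values of 4.33 to 7.87 for each degree of freedom.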

Additional observations from a re-analysis of the deposited data

How the results depend on the processing

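The total numbers of called integrins, laminins and all genes, both directions together, stayed within 1.5 times of the values given, in each alternative and with each library left out. By direction, higher laminins went from 5 to 3 in RAS against control with the GC offset, and from 1 to 2 in RAS/shDOT1L against RAS with it or with library size alone. Without 1 library, 12 to 13, 9 to 11, 12 to 13 and 12 to 15 integrins were called in RAS against control, RAS/shDOT1L against RAS, DOT1L OE against control and RAS/shDOT1L against control, and 8 to 10, 5 to 6, 6 and 8 to 9 laminins. The replicate numbers did not pair the libraries (correlations of same-numbered deviations -0.019 to 0.027); with the replicate block, 8435 genes were called in RAS against control in place of 8670. The GC offset turned these log2 changes, each called in at least 1 of the fits: in RAS against control ITGA1 0.41 (adjusted p = 2.31e-08), ITGB1 0.18, LAMA5 -0.12 and LAMB2 -0.20; in RAS/shDOT1L against RAS ITGA5 0.11, ITGAV -0.040 and ITGB1 -0.012; in DOT1L OE against control ITGA1 0.12; and in RAS/shDOT1L against control ITGB1 0.16. With the replicate block added to the GC offset the values were 0.41, 0.18, -0.11 and -0.20; 0.11, -0.045 and -0.012; 0.13; and 0.16. The cause was not tested. Over the integrin and laminin genes tested, the GC fits turned 18 values, some of which also gained or lost a call. Of the other values in these fits, 190 kept their call, 10 were newly called and 4 lost it. Leaving out a library left 644 as they were, with 4 newly called and 18 lost. The remaining alternatives left 868, with 5 newly called and 8 lost. Values called in neither fit, such as LAMB3 in RAS/shDOT1L against RAS (-0.078 and, with the GC offset, 0.21), could change sign without a change of call. Genes under about 1 CPM are limited by depth.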
